A study of Homo sapiens with 6 samples.

Results

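NF-kB is a family of dimeric transcription factors that controls survival, inflammatory and immune genes, and it is often active in multiple myeloma, a cancer of plasma cells. Its 5 subunits (NFKB1, NFKB2, RELA, RELB and REL) and 5 genes that restrain or feed the pathway (NFKBIA, TNFAIP3, TRAF3, BIRC3 and MAP3K14) were followed here in MM.1S, an established human multiple myeloma cell line. The 10 genes were chosen by name, with earlier results of these data known, from the 58735 genes of the expression table, and 9 of them had a mean of at least 1 FPKM and were among the 13585 genes tested. FPKM is the number of fragments on a gene scaled by a length for the gene and a size for the library. Levels of different genes in FPKM can be compared only as far as the deposited gene lengths match the transcripts present.

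RNA was sequenced in 3 control and 3 PRMT1 KD libraries, all of the same line. The study isolated total RNA for RNA-seq, and its methods do not say how that RNA was selected before sequencing. PRMT1 is a protein arginine methyltransferase. Per the study's methods, the control was a negative control siRNA (si-NC) and the knockdown an siRNA against PRMT1 (si-PRMT1), each transfected transiently at 100 nM with cells collected at 72 h, and the labels give only the control and knockdown states. The study's methods call its replicates biological and dependent, for all its experiments alike. Which of the PRMT1 siRNAs was used, and whether the 3 libraries of a group came from separate cultures, were not given in the sources used here, so the p-values measure only the spread between these libraries.

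In the canonical branch of the pathway, dimers of RELA or REL with the processed NFKB1 protein are held in the cytoplasm by NFKBIA (IkB-alpha) until the IKK kinase complex marks it for destruction. In the noncanonical branch, MAP3K14 (NIK) drives the processing of the NFKB2 precursor, whose product acts mainly with RELB. TRAF3 and BIRC3 belong to the complex that keeps NIK low, TNFAIP3 (A20) is a ubiquitin-editing enzyme that dampens the canonical branch, and NFKBIA, TNFAIP3, BIRC3, NFKB2 and RELB are themselves known targets of NF-kB, which makes several of these genes parts of feedback loops.

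The promoters show where such feedback could be read from the sequence alone. RefSeq promoters (assembly GRCh38.p14, 250 bases before to 50 bases after a transcription start) were given for 9 of the 10 genes, with 13 starts in all, and none was given for RELB. The 10-base NF-kB consensus, known as the kappa B site, was searched on both strands. It was present in 8 of the 13 promoters, belonging to 7 of the genes, and in 2714 of all 35116 promoters of this length (7.73%). No match lay in the windows of RELA or MAP3K14. The stretches below carry the matches in capitals and are read 5′ to 3′ on the strand of the gene. They are shown because the same letters recur between genes. NFKB1, REL and NFKBIA shared the form GGGAATTTCC, which 0.145% of all promoters held on either strand. In REL and NFKBIA it lay on the opposite strand, so its reverse complement is printed.
NFKB1 (chr4:102501300-102501329, plus strand, 49 bases before the start): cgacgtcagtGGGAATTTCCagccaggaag
REL (chr2:60881518-60881547, plus strand, 46 bases before the start): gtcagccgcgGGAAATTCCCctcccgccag
NFKBIA (chr14:35404811-35404840, minus strand, 81 bases before the start): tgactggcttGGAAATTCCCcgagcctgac

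TRAF3, BIRC3 and TNFAIP3 shared another form, GGGGATTTCC, which 0.111% of all promoters held. TNFAIP3 had a second match, GGGACTTTCC, beside it, so that its pair of matches lay at 67 and 55 bases before the start, both on the opposite strand. The form GGGACTTTCC was in 0.191% of all promoters and was also found in NFKB2.
TRAF3 (chr14:102777406-102777435, plus strand, 33 bases before the start): cgggcgcgccGGGGATTTCCagcgcgcgag
BIRC3 (chr11:102317275-102317304, plus strand, 199 bases before the start): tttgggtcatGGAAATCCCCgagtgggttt
TNFAIP3 (chr6:137867188-137867217, plus strand): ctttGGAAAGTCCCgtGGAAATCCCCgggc

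NFKB2 held the most matches of the 9 genes, 2 before each of 2 of its 3 starts. Before start 2 a palindromic match, GGGAATTCCC, lay at 107 bases and GGGGCTTTCC at 78 bases. Before start 3 GGGGCTTCCC lay at 176 bases and GGGACTTTCC at 21 bases.
NFKB2, start 2 (chr10:102394461-102394490, plus strand): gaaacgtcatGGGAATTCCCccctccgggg
NFKB2, start 3 (chr10:102395674-102395703, plus strand): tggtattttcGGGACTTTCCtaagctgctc

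Against the GENCODE 29 annotation, 4 of the 11 matched sites (those of NFKB1, NFKBIA, TRAF3 and BIRC3) lay before the gene, 6 (of REL, TNFAIP3 and NFKB2) lay in an exon of the gene, and 1 (of NFKB2) lay in an intron. A match of letters is a description of the sequence, and binding of NF-kB was not measured in these libraries. The map of promoter matches places all sites on one scale.

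**Figure D1:**
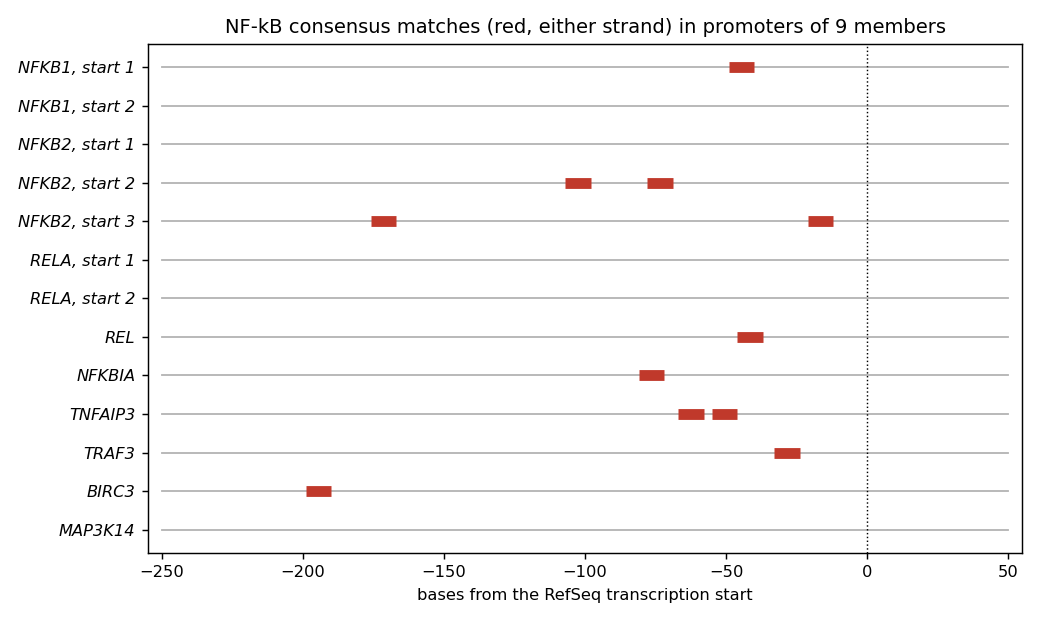
Matches to the NF-kB consensus (red blocks, either strand) in the 13 RefSeq promoters of 9 genes, drawn as distance in bases from the transcription start, with 250 bases before and 50 bases after it. NFKB2 carries matches before 2 of its 3 starts, TNFAIP3 carries a close pair, and RELA and MAP3K14 carry none.

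The libraries were of similar depth, with 16064769 to 16465026 reads on genes in the controls and 14439217 to 16313196 in PRMT1 KD, and log2 expression correlated between libraries by 0.974 to 0.984. PRMT1 itself (ENSG00000126457, chr19:49675786-49689029, hg38) was at 61.7, 62.8 and 58.9 FPKM in the controls and at 13.3, 14.0 and 12.5 FPKM in PRMT1 KD, 21.7% of the control mean (log2 fold change -2.13, limma adjusted p = 2.77e-05). All 8 plasma cell markers examined were expressed, with summed levels of 858 to 874 FPKM in control and 833 to 879 FPKM in PRMT1 KD libraries. One of them, SLAMF7, fell from 38.0 to 23.8 FPKM (limma adjusted p = 0.00515). The B cell marker MS4A1 and the stromal marker COL1A2 were at 0 in all 6 libraries, all 4 myeloid markers had means over the 6 libraries of at most 0.498 FPKM, and of the T cell markers only CD3E was expressed (32.1 to 39.0 FPKM) while CD3D stayed at or under 0.845 FPKM and CD2 at or under 0.0369 FPKM. In bulk RNA, fewer cells of a kind and less RNA per cell cannot be told apart.

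None of the 9 NF-kB genes tested passed an adjusted p of 0.05 for a difference between PRMT1 KD and control (limma on log2(FPKM + 1), Benjamini-Hochberg over 13585 genes). Over all genes tested, 279 (2.05%) passed, 1.07% higher and 0.986% lower in PRMT1 KD, so a count of 0 among 9 is near the background and is no result about these genes. At an unadjusted p under 0.05 there were 3 (RELB, TRAF3 and NFKBIA), all higher in PRMT1 KD, beside 19.5% of all genes tested (10.1% higher and 9.47% lower). In the same 3 genes every PRMT1 KD library lay above every control library, beside 13.6% of all genes tested, and in none did every PRMT1 KD library lie below every control, beside 12.3%. The median log2 fold change of the 9 genes was 0.11, with 7 above 0 and 2 below, against a median of 0.01 over all genes tested, of which 52.6% were above 0. Mean levels in PRMT1 KD ran from 89.9% of the control mean for TNFAIP3 to 124% for RELB.

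**Figure D2:**
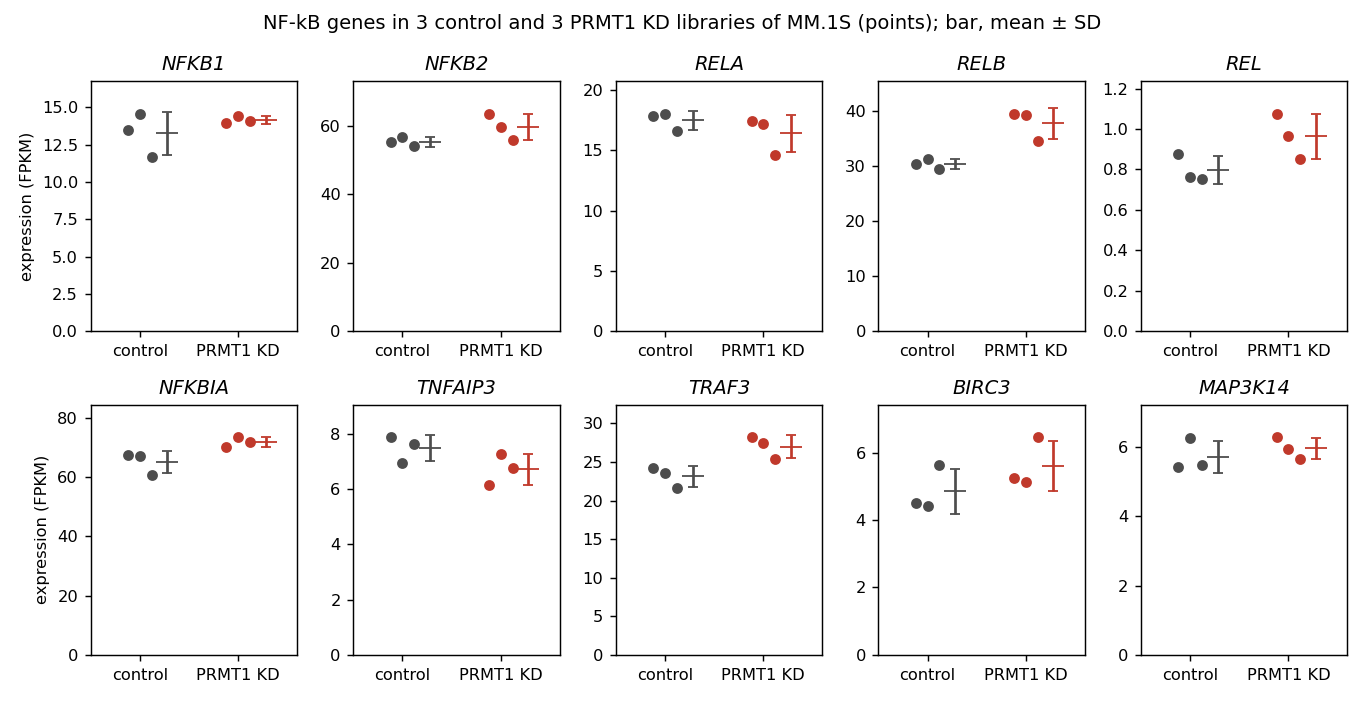
FPKM of the 10 NF-kB genes in each library (points, 3 control in grey and 3 PRMT1 KD in red), with the mean and SD of each group beside them and each vertical axis starting at 0. The groups are separate for RELB, NFKBIA and TRAF3, with PRMT1 KD higher, and overlap for the other 7 genes.

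Among the subunits, NFKB2 was the most abundant, at a mean of 57.5 FPKM over the 6 libraries, followed by RELB at 34.1, RELA at 17.0, NFKB1 at 13.7 and REL at 0.881 FPKM. No neighbours in this order of subunits had overlapping ranges. With the regulators included, NFKBIA stood highest at 68.4 FPKM, above 96.1% of all genes tested, though its range overlapped that of NFKB2. TRAF3 came between RELB and RELA at 25.1 FPKM. TNFAIP3 (7.10 FPKM), MAP3K14 (5.83 FPKM) and BIRC3 (5.23 FPKM) followed NFKB1, and neighbours among these 3 genes overlapped in range. The subunit pair of the noncanonical branch, NFKB2 and RELB, was thus at higher FPKM than RELA and NFKB1 in every library. For RELB and RELA this order rests on the deposited gene lengths, 3035 and 5464 bases. In the controls RELA had more reads (1619, 1591 and 1500) than RELB (1528, 1527 and 1480), and in PRMT1 KD RELB had more. How these lengths relate to the transcripts present was not tested.

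RELB (ENSG00000104856, chr19:45001430-45038198, plus strand), the partner of processed NFKB2, gave the smallest limma p of the 9 genes tested. It was at 30.4, 31.2 and 29.5 FPKM in the controls and at 39.5, 39.3 and 34.5 FPKM in PRMT1 KD. All PRMT1 KD libraries were above all controls, and the third PRMT1 KD library was the lowest of its group. The means were 30.4 ± 0.846 and 37.8 ± 2.82 FPKM (SD, n = 3 each), a log2 fold change of 0.30 (95% confidence interval 0.16 to 0.45, limma unadjusted p = 0.00182, adjusted p = 0.0629). The exact permutation test on FPKM gave p = 0.1, the smallest that 3 against 3 libraries allow in a two-sided test. This gene sat at the threshold: its adjusted p was 0.0321 when genes under a mean of 5 FPKM were left out (6.13% of 7710 genes passed) and 0.0147 with voom on reads worked back from FPKM (6.59% of 13585 genes passed). With each library left out in turn, its adjusted p was 0.0579 to 0.208. The RNA rested on 1480 to 1979 reads per library.

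NFKB2 (ENSG00000077150, chr10:102394110-102402529, plus strand) was at 55.1, 56.7 and 53.9 FPKM in the controls and at 63.5, 59.5 and 55.9 FPKM in PRMT1 KD. The third PRMT1 KD library lay within the control range, so the groups overlapped. Its log2 fold change was 0.11 (interval -0.02 to 0.24, limma adjusted p = 0.342).

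RELA (ENSG00000173039, chr11:65653596-65663094, minus strand) carries the main activating subunit of the canonical branch. It was at 17.9, 18.1 and 16.6 FPKM in the controls and at 17.4, 17.2 and 14.6 FPKM in PRMT1 KD. The groups overlapped, with a log2 fold change of -0.09 (interval -0.27 to 0.09, limma adjusted p = 0.546). NFKB1 (ENSG00000109320, chr4:102501329-102617302, plus strand), its usual partner, was at 13.5, 14.6 and 11.7 FPKM in the controls and at 14.0, 14.5 and 14.1 FPKM in PRMT1 KD. Its PRMT1 KD values all fell inside the control range (log2 fold change 0.09, interval -0.09 to 0.28, limma adjusted p = 0.552). REL (ENSG00000162924, chr2:60881521-60931610, plus strand), the subunit best known from lymphocyte activation, was at 0.754 to 0.876 FPKM in the controls and at 0.852 to 1.08 FPKM in PRMT1 KD. Those ranges overlapped, and at 162 to 234 reads per library and a mean under 1 FPKM this gene was not tested.

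**Figure D3:**
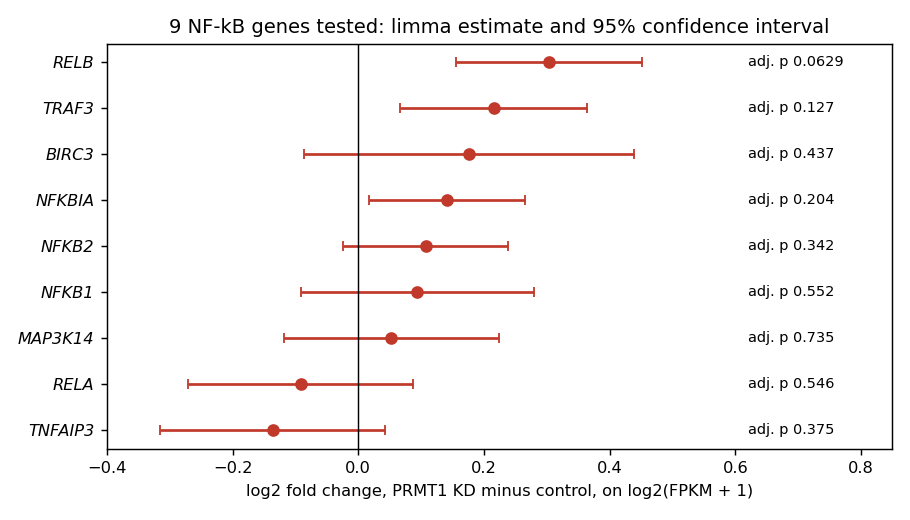
Log2 fold change (PRMT1 KD minus control, on log2(FPKM + 1)) of the 9 NF-kB genes tested, as the limma estimate with its 95% confidence interval and adjusted p. The intervals of RELB, TRAF3 and NFKBIA lie above 0 before adjustment, the other 6 include 0, and no adjusted p is under 0.05.

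Setting subunits against each other inside a library removes what library size adds to each. This comparison was chosen after the values were seen. The ratio of RELB to RELA was 1.70, 1.73 and 1.78 in the controls and 2.27, 2.29 and 2.36 in PRMT1 KD. The groups were apart by more than the spread within either, at means of 1.73 ± 0.039 and 2.30 ± 0.0483 (SD, n = 3 each), 1.33 times higher in PRMT1 KD (exact permutation p = 0.1, the smallest possible). The ratio of NFKB2 to NFKB1, the pair of precursors, was 4.20 ± 0.372 in control and 4.21 ± 0.296 in PRMT1 KD (SD, n = 3 each, exact permutation p = 0.9), and the groups overlapped. Of the summed FPKM of the 5 subunits, RELB made up 25.9% ± 0.275 in control and 29.3% ± 0.577 in PRMT1 KD (SD, n = 3 each), while RELA made up 14.9% ± 0.217 and 12.7% ± 0.46. For both of these shares the groups were separate, and for those of NFKB2, NFKB1 and REL they overlapped. The shares are parts of the same sum, so a higher share of RELB lowers the others. They are not separate results, and the FPKM of RELA itself overlapped between the groups.

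**Figure D4:**
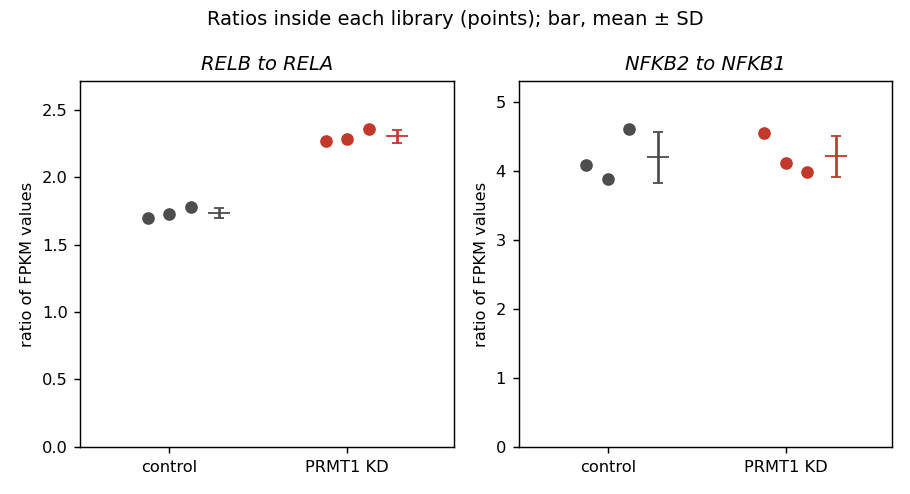
Ratios of FPKM between subunits in each library (points, 3 control in grey and 3 PRMT1 KD in red), with mean and SD and axes starting at 0. RELB to RELA lies between 1.70 and 1.78 in control and between 2.27 and 2.36 in PRMT1 KD, whereas NFKB2 to NFKB1 overlaps between the groups.

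NFKBIA (ENSG00000100906, chr14:35401511-35404749, minus strand), the inhibitor that NF-kB itself induces, was at 67.4, 67.0 and 60.7 FPKM in the controls and at 70.1, 73.4 and 71.8 FPKM in PRMT1 KD. The groups did not overlap, but the gap between the highest control and the lowest PRMT1 KD library was smaller than the range of the controls. The log2 fold change was 0.14 (interval 0.02 to 0.27, limma unadjusted p = 0.0314, adjusted p = 0.204). TNFAIP3 (ENSG00000118503, chr6:137867188-137883312, plus strand), also a feedback inhibitor induced by NF-kB, was at 7.87, 6.95 and 7.62 FPKM in the controls and at 6.14, 7.26 and 6.76 FPKM in PRMT1 KD. Its groups overlapped, and its estimate was below 0 (log2 fold change -0.14, interval -0.32 to 0.04, limma adjusted p = 0.375). These 2 feedback genes therefore had estimates of opposite sign, neither past the threshold.

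TRAF3 (ENSG00000131323, chr14:102777476-102911500, plus strand), the adaptor that brings NIK to its degradation complex and is often inactivated in myeloma, was at 24.2, 23.6 and 21.6 FPKM in the controls and at 28.2, 27.4 and 25.4 FPKM in PRMT1 KD. All PRMT1 KD libraries were above all controls, at means of 23.1 ± 1.37 and 27.0 ± 1.45 FPKM (SD, n = 3 each). The log2 fold change was 0.22 (interval 0.07 to 0.36, limma unadjusted p = 0.0109, adjusted p = 0.127). With voom its adjusted p was 0.0468, and with each library left out in turn it was 0.12 to 0.292.

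MAP3K14 (ENSG00000006062, chr17:45263119-45317145, minus strand), which encodes NIK, was at 5.42, 6.25 and 5.46 FPKM in the controls and at 6.27, 5.93 and 5.65 FPKM in PRMT1 KD. The groups overlapped (log2 fold change 0.05, interval -0.12 to 0.22, limma adjusted p = 0.735). BIRC3 (ENSG00000023445, chr11:102317450-102339403, plus strand), a ubiquitin ligase of the complex that degrades NIK, was at 4.51, 4.42 and 5.63 FPKM in the controls and at 5.25, 5.12 and 6.45 FPKM in PRMT1 KD. The third library of each group was the highest, and the groups overlapped (log2 fold change 0.18, interval -0.09 to 0.44, limma adjusted p = 0.437). The ratio of TRAF3 to MAP3K14 was 4.06 ± 0.359 in control and 4.54 ± 0.0764 in PRMT1 KD (SD, n = 3 each, exact permutation p = 0.1). Its groups were separate by a gap smaller than either SD, with 4.47 in the highest control and 4.49 in the lowest PRMT1 KD library. The ratio of TRAF3 to BIRC3 was 4.85 ± 0.877 and 4.89 ± 0.826 (exact permutation p = 0.7) with overlapping groups. Both ratios were chosen after the values were seen.

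The libraries within a group were not alike across these genes. Of the 10 genes, 7 had their lowest control value in the third control library, and 6 had their lowest PRMT1 KD value in the third PRMT1 KD library. The first PRMT1 KD library held the highest value of its group for 6 of the 10. BIRC3 differed in this, with its highest value in the third library of both groups. The same order was not counted over all genes tested. A trait of these genes therefore cannot be told apart from a shift of whole libraries.

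Counting could touch some of these levels. The genes RELA, REL, TNFAIP3, TRAF3 and MAP3K14 overlap other annotated genes, and whether counting used strand was not given in the sources used here. The overlapping genes at REL, TNFAIP3 and TRAF3 carried at most 2 reads per library, and AP001362.2 opposite RELA carried 13 to 25. MAP3K14-AS1 carried 50 to 76, beside 494 to 599 for MAP3K14. How reads lying on 2 genes were handled was not given in the sources used here. These counts therefore do not bound the reads that a gene gained or lost. Without strand, reads of an opposite-strand partner cannot be told apart from those of the gene itself.

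By Pearson correlation of log2(FPKM + 1) over the 6 libraries, among 13576 other genes tested, the 5 genes whose pattern was most like that of RELB were CDC25A (0.996), MFGE8 (0.995), AC073869.1 (0.995), SORD (0.992) and NCBP3 (0.989). The 6 points of each correlation fall into 2 groups of 3, so a difference between the groups enters it. These values are a description only. The adjusted p of the 5 genes ran from 0.0864 (AC073869.1) to 0.315 (SORD).

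The rest of the pathway was read from lists of 88 further genes written from general knowledge of NF-kB signaling, of which 58 were expressed enough to be tested. Of these, 2 rose and 2 fell (limma adjusted p under 0.05). One of the 4, CCL3, was already known to fall in these data when the lists were written. The 4 are 6.9% of the 58, and without CCL3 there are 3 of 57 (5.26%), beside 2.05% of all genes tested. With each library left out in turn, 1 to 2 of the 58 passed. Their median log2 fold change was 0.03.

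The other IkB proteins bind NF-kB dimers as inhibitors or, in the nucleus, as cofactors. All 5 were tested and had estimates above 0, with a median log2 fold change of 0.19, but 0 passed (limma), 2 had an unadjusted p under 0.05, and 2 passed with voom. When genes under a mean of 5 FPKM were left out, 1 passed by limma, beside 6.13% of 7710 genes. Over all genes tested, 52.6% had estimates above 0, 2.05% passed, 19.5% had an unadjusted p under 0.05 and 6.59% passed with voom. The 2 genes were BCL3 and NFKBIZ, nuclear members of the group. BCL3 was at 6.15, 6.73 and 6.96 FPKM in the controls and at 9.10, 8.38 and 8.40 FPKM in PRMT1 KD (log2 fold change 0.34, limma adjusted p = 0.0531), so every PRMT1 KD library was above every control. NFKBIZ was at 7.72, 7.72 and 8.18 FPKM in the controls and at 10.1, 10.4 and 8.78 FPKM in PRMT1 KD (log2 fold change 0.27, limma adjusted p = 0.104), again with separate groups. NFKBID, NFKBIE and NFKBIB had log2 fold changes of 0.19, 0.09 and 0.10 and overlapping groups.

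Of the IKK complex and the kinases above it, 10 of 11 genes were tested and 0 passed (limma), with 0 at an unadjusted p under 0.05 and 0 with voom. Over all genes tested, 2.05% passed, 19.5% had an unadjusted p under 0.05 and 6.59% passed with voom. So 0 passing among 10 is near the background and is no result about these genes. The median log2 fold change of the 10 was 0.02, near that of all genes. The smallest p values belonged to TAB2, an adaptor of the TAK1 kinase, at 11.0 ± 0.607 and 12.2 ± 0.62 FPKM (limma adjusted p = 0.311), and IKBKG, the regulatory subunit NEMO, at 2.24 ± 0.279 and 2.77 ± 0.354 FPKM (SD, n = 3 each, limma adjusted p = 0.323). IKBKG has a near-identical pseudogene with which its reads may be shared. MAP3K8 had a mean under 1 FPKM and was not tested.

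Among 23 adaptors and ubiquitin enzymes, 20 were tested, 1 fell and none rose (limma), with 3 lower and 1 higher at an unadjusted p under 0.05. Over all genes tested, 0.986% fell and 1.07% rose, and 9.47% were lower and 10.1% higher at an unadjusted p under 0.05, so the unadjusted count is near the background. The gene that fell was RNF11, a RING protein that works with TNFAIP3, ITCH and TAX1BP1 in the A20 ubiquitin-editing complex. It was at 14.7, 15.2 and 15.8 FPKM in the controls and at 10.3, 11.1 and 10.9 FPKM in PRMT1 KD. The groups were far apart beside their spread, and the log2 fold change was -0.46 ± 0.0523 (standard error), with a limma adjusted p of 0.0175. Without any 1 library its log2 fold change was -0.44 to -0.49, and its adjusted p was over 0.05 in 5 of 6 such fits, up to 0.096. TAX1BP1, of the same complex, was at 10.4 ± 1.24 and 12.7 ± 1.32 FPKM (limma adjusted p = 0.21), and RBCK1, a subunit of the linear ubiquitin ligase, at 25.9 ± 1.58 and 22.9 ± 1.39 FPKM (SD, n = 3 each, limma adjusted p = 0.215). TRAF1 and TRAF5 had means under 1 FPKM.

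Receptors and ligands stand at the top of the pathway. Of 10 receptors 6 were tested and 0 passed (limma), with 1 higher at an unadjusted p under 0.05 (10.1% of all genes tested) and 0 with voom. That one was TNFRSF13C, the BAFF receptor, which signals through the noncanonical branch. It was at 3.64, 4.02 and 3.47 FPKM in the controls and at 4.99, 5.09 and 4.36 FPKM in PRMT1 KD, with separate groups (log2 fold change 0.30, limma adjusted p = 0.109). TNFRSF1A, a TNF receptor, was at 8.89 ± 0.705 and 9.89 ± 0.511 FPKM (SD, n = 3 each, limma adjusted p = 0.333). Of 9 ligands only LTB (lymphotoxin beta, 5.84 ± 0.459 and 5.18 ± 1.43 FPKM, limma adjusted p = 0.608) and TNFSF13 (APRIL, 3.90 ± 0.538 and 3.49 ± 0.553 FPKM, limma adjusted p = 0.599) were expressed enough to test. Their groups overlapped, and 0 passed by limma, at an unadjusted p under 0.05 or with voom. Over all genes tested, 2.05% passed by limma, 19.5% had an unadjusted p under 0.05 and 6.59% passed with voom. Counts of 0 among so few receptors and ligands are no result about them. TNF had at most 0.074 FPKM and CD40LG and TNFSF12 were at 0 in all 6 libraries. Overlap with other annotated genes, which can touch counting, was not examined for the listed genes.

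Known NF-kB target genes moved in both directions. Of 30 listed, 15 were tested, 2 rose and 1 fell (limma), beside 1.07% and 0.986% of all genes tested, and their median log2 fold change was 0.00. The count of 3 became 1 with any 1 library left out, with no filter and without the trend. With voom it became 5, beside 6.59% of all genes tested. The 2 that rose were IER3 and MYC. IER3, an early response gene linked to cell survival, was at 3.34, 4.02 and 4.02 FPKM in the controls and at 5.67, 5.84 and 5.28 FPKM in PRMT1 KD (log2 fold change 0.46, standard error 0.081, limma adjusted p = 0.046). MYC, the proliferation factor, was at 223, 234 and 212 FPKM in the controls and at 286, 284 and 267 FPKM in PRMT1 KD (log2 fold change 0.32, standard error 0.0521, limma adjusted p = 0.0399). For both genes the groups were separate, and neither passed once any 1 library was left out, with adjusted p up to 0.161 for IER3 and 0.17 for MYC.

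The target that fell was CCL3, the macrophage inflammatory chemokine, at 20.3, 21.8 and 22.1 FPKM in the controls and 9.57, 7.49 and 8.31 FPKM in PRMT1 KD (log2 fold change -1.25, limma adjusted p = 0.0039). Its reads may be shared with near-identical copies of the gene. CCL5, also a chemokine, was at 4.31, 4.47 and 4.76 FPKM in the controls and at 2.16, 2.62 and 3.69 FPKM in PRMT1 KD (log2 fold change -0.55, limma adjusted p = 0.104). JUNB, an AP-1 factor, was at 48.8, 49.4 and 41.5 FPKM in the controls and at 64.8, 61.4 and 54.9 FPKM in PRMT1 KD (log2 fold change 0.37, limma adjusted p = 0.0864). Both had separate groups and missed the threshold with limma. Both passed with voom (adjusted p = 0.0361 for CCL5 and 0.0127 for JUNB), as did 6.59% of all genes tested. Another 6 listed targets, CXCL8, CXCL10, IL6, CD44, CD83 and PTGS2, were at 0 in all 6 libraries.

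A list of 11 genes used to gauge NF-kB activity in myeloma had 8 genes tested, among them 5 of the 10 genes described above. None passed (limma, beside 2.05% of all genes tested), and the median log2 fold change was 0.12. Of the 8, 2 (RELB and NFKBIA) had an unadjusted p under 0.05 (19.5% of all genes tested) and 1 (RELB) passed with voom (6.59%). Because the list shares RELB, NFKBIA, NFKB2, TNFAIP3 and BIRC3 with those genes, its median repeats their values in part. The other genes tested were NFKBIE, CD74 and MALT1, and IL2RG, PLEK and WNT10A had means under 1 FPKM. The plot of pathway roles sets the groups of genes side by side.

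**Figure D5:**
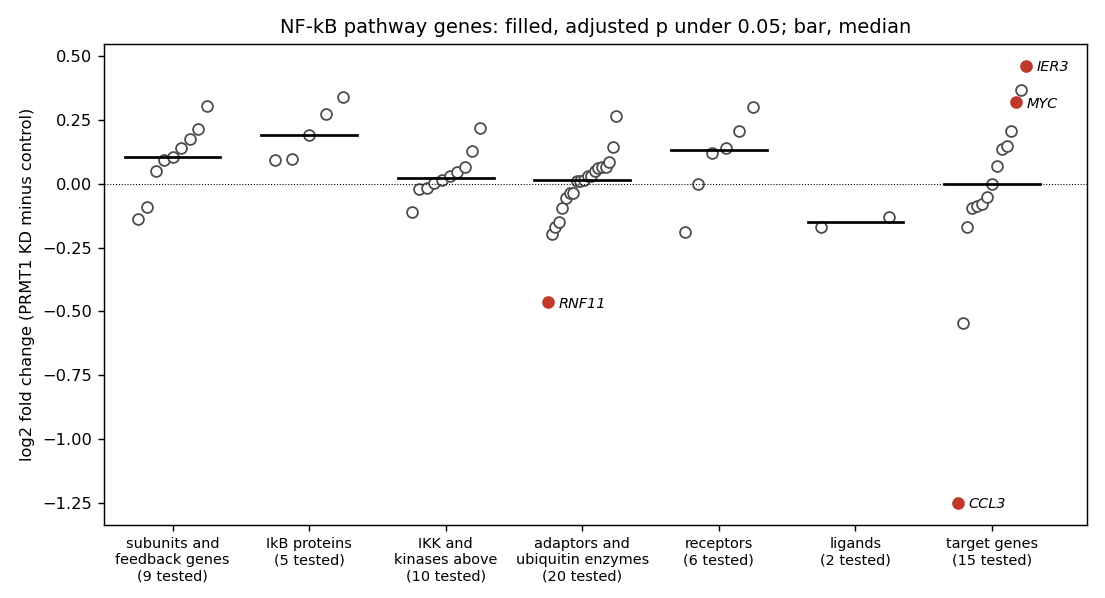
Log2 fold change (PRMT1 KD minus control, on log2(FPKM + 1)) of each gene tested, by role in the NF-kB pathway, with filled points for limma adjusted p under 0.05 and a bar at each median. The 9 subunit and feedback genes have a median of 0.11 and no filled point, and the filled points are RNF11 and CCL3, which fell, and IER3 and MYC, which rose.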

How the data were processed

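The 6 libraries were grouped by the labels (control and PRMT1 KD, 3 each). The authors deposited FPKM values per gene with the length of each gene in bases. The submitters' processing notes name featureCounts 1.5.0-p3 and hg38, and the aligner was not given in the sources used here. FPKM times gene length came out, for 100% of values above 0, as whole multiples of a step particular to each library (tolerance 0.02). Dividing by the step gave reads per gene, whose sum is the depth given here. All 10 genes had the same coordinates in GENCODE 29.

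Differences were tested with limma 3.58.1 (R 4.3.3; empirical Bayes with trend, two-sided, Benjamini-Hochberg) on log2(FPKM + 1) for 13585 genes with a mean of at least 1 FPKM, so fold changes of low genes are understated. A gene was called at an adjusted p under 0.05. Ratios and single genes had two-sided exact permutation tests over 20 splits. On simulated reads for this comparison, 155 of 200 genes changed by 1 on the log2 scale (77.5%) and 11 unchanged genes were called among 13594. The simulation set one assumed dispersion for all genes, not estimated from these libraries, so its rates need not hold for them. Smaller changes were not simulated.

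The 10 genes and the lists were chosen with earlier results of these data known. Of each list, the genes called and the next 2 by unadjusted p were named, along with further genes chosen after their values were seen (NFKBID, NFKBIE, NFKBIB and those named as not expressed enough to test, or at 0). For SOD2, a symbol on more than one row, the entry with the higher mean was used. Precision is limited by 3 libraries per group. Alternatives were another pseudocount (0.1), no filter or a mean of at least 5 FPKM, median scaling, TPM, no trend, voom, a replicate block and each library left out.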

Additional observations from a re-analysis of the deposited data

How the results depend on the processing

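The number of genes passing the test (279 of 13585) was 35 with no filter, 473 with a mean of at least 5 FPKM, 43 without the trend, 895 with voom and 13 to 94 with each library left out. The number of NF-kB genes passing (0 of 9) was 1 with a mean of at least 5 FPKM (RELB) and 2 with voom (RELB and TRAF3), and 0 in the other 12 alternatives. Of the 58 listed pathway genes tested, 4 passed. The count was 2 with no filter, 2 without the trend, 5 with a mean of at least 5 FPKM and 8 with voom. With each library left out it was 1 to 2. The log2 fold changes of PRMT1, the 9 NF-kB genes, RNF11, CCL3, IER3 and MYC kept their direction in every alternative run, and those of other named genes were not recomputed. PRMT1 and CCL3 passed in all 14 alternatives, MYC in 6 of 14, IER3 in 4 of 13 and RNF11 in 9 of 14. For IER3 the adjusted p was 0.129 with no filter, 0.0769 without the trend and 0.0601 with the replicate block, and for MYC 0.129 and 0.0845 with no filter and without the trend. The cause was not tested. The median log2 fold change of the 9 NF-kB genes was 0.107, and 0.0899 to 0.127 in the 14 alternatives. The fit with no filter also included REL. These moves were smaller than the spread of the median level between libraries of a group (0.103). That spread is nearly as large as the median itself, so staying under it is a weak check.

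Replicate numbers were shared by the labels only. Deviations of same-numbered libraries correlated by 0.02, 0.0631 and 0.101, not all over 0.1, and those of other pairs by -0.0751 to 0.0186, so each library correlated best with its own number, a hint from the data and not from the design. In the fit with a replicate block, 204 genes, 0 NF-kB genes and 4 listed pathway genes passed, and the adjusted p was 0.0545 for RELB and 0.0577 for TRAF3. Median scaling moved the median of all genes by -0.01 and TPM by 0.02 on the log2 scale.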
